A study of Mus musculus with 12 samples.

Results

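The 9 genes described here encode the mouse proteins that bind or act on double-stranded RNA in the interferon response: the kinase PKR (Eif2ak2), the RNA editing enzyme ADAR1 (Adar), 6 members of the oligoadenylate synthetase family (Oas1a, Oas1b, Oas2, Oas3, Oasl1 and Oasl2) and the Z-form nucleic acid sensor ZBP1 (Zbp1). They were listed by name, and all 9 had a row among the 55487 genes of both count tables. B16F10 cells, a mouse melanoma line of C57BL/6 origin, were sequenced as ribosome-protected fragments (RPF, the footprints of ribosomes on mRNA) and as total RNA after they had been infected with a control hairpin (shCtr) or with hairpin 2 against Osgep (shOSGEP). Both genotypes had gone through lentiviral infection and puromycin selection, and the cells were lysed after a short treatment with cycloheximide. The Osgep protein is the catalytic part of KEOPS, a complex that makes t6A on tRNAs reading codons that start with A. Each genotype had 3 replicates in each assay, which gave 12 libraries from 6 cell samples, and libraries with the same replicate number are called a pair here.

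These proteins share the ability to recognise long double-stranded or Z-form RNA, a structure made by viruses and by some transcripts of the cell itself. Activated PKR phosphorylates eIF2α and reduces translation, OAS enzymes make oligoadenylates that act as second messengers, ADAR1 edits adenosine to inosine and so breaks up long duplexes, and ZBP1 can start inflammatory cell death. Transcription of most of these genes is increased by interferon through the interferon-stimulated response element (ISRE), while Eif2ak2 and Adar are also made in resting cells.

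Promoter windows from the RefSeq table (GRCm38.p6, 250 bases before to 50 bases after the annotated start) were matched for Eif2ak2, Adar, Oas1a, Oas3, Oasl1 and Oasl2, and not for Oas1b, Oas2 and Zbp1. They were searched on both strands for the ISRE core GAAANNGAAA, which 3.43% of all 32817 windows held, and for the gamma-activated site TTCNNNGAA, which 8.29% held. The ISRE core was found in the windows of Eif2ak2, Oas1a and Oas3 and not in those of Adar, Oasl1 and Oasl2. The 30 bases around it are shown because the core is what the 3 windows shared, with the matched letters in capitals.
Eif2ak2: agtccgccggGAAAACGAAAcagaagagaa
Oas1a: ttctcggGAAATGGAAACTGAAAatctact
Oas3: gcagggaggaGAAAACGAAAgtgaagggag
The first lies on the minus strand at chr17:78882535-78882564, where the match ran from 18 to 27 bases after the start. The others lie on the minus strand of chromosome 5. The Oas1a stretch, at chr5:120907523-120907552, held 2 overlapping matches between 20 and 5 bases before the start, and the Oas3 stretch, at chr5:120777715-120777744, held 1 between 75 and 66 bases before it. The gamma-activated site occurred once in the windows of Eif2ak2 and Oas1a and in 1 of the 3 windows of Adar, and it overlapped no ISRE match. A match describes the letters only, and binding was not measured.

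Total RNA libraries held 46.7 to 81.1 M counts, with M for mega, and RPF libraries 12.9 to 40.3 M, of which 4.42 to 17.0 M fell on protein-coding genes. Osgep itself was reduced in every shOSGEP library, to 4.25% of its paired shCtr level in total RNA of replicate 1 and to 44.0% and 44.4% in replicates 2 and 3. In RPF 63.1%, 52.3% and 50.1% were left. The shOSGEP replicate 1 cell sample stood apart from the others beyond Osgep. In its RPF library 15.6% of the counts fell on protein-coding genes, against 29.8% to 48.6% in the others, and its TMM factor was 0.428 against 0.807 to 1.35. The 7 melanocyte markers summed to 2655 CPM (counts per 1e6 of library size after TMM scaling) in its total RNA. The other 5 total RNA libraries held 9665 to 16837 CPM, and all 7 markers were detected in every library. In total RNA of shOSGEP replicate 1 the 4 fibroblast markers summed to 25.3 CPM, against 6.51 to 10.3 CPM elsewhere. This was mostly through Col1a1, which had 987 reads in that library against 26 to 159, while Dcn had at most 4 reads. Of the blood cell markers, Cd3e and Itgam had no read in any total RNA library. Ptprc, the pan-leukocyte gene, had 5 reads in the shOSGEP replicate 1 library and none in the others. Cd68 had 50 total RNA reads in that library and 130 to 286 in the others, and Lyz2 had 35 to 85 reads in each. The 7 markers together held 2.20 to 5.56 CPM, mostly through Cd68 and Lyz2. The endothelial markers Cdh5 and Kdr were at 0 in all total RNA libraries, and Pecam1 had 7 to 14 reads. The part of these differences in the results below was not tested. The 9 genes are therefore given by pair, and their fits also without that sample where they still passed the filter. In bulk libraries, more cells that express a gene and more RNA per cell cannot be told apart.

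All 9 genes had their highest total RNA level in the shOSGEP replicate 1 library, and all 9 had their highest RPF level there too. Among the 7 genes that passed the filter on low counts in total RNA this held for 7, where 36.4% of all 14516 genes tested had that library highest of 6, and among the 6 that passed in RPF it held for 6, where the share was 30.6% of 13529 genes. Oas1b, Oas2, Oasl1 and Oasl2 had only 3 to 25 reads in each of the other total RNA libraries, so the filter itself favours such genes when they are high in 1 library, and the 2 shares cannot be read against each other for them. The same holds in RPF for Oas1a and Oas1b, which had 0 to 23 reads in the other RPF libraries. These genes did not pass the RPF filter without the shOSGEP replicate 1 sample. Oas2 and Oas3, with 0 to 69 reads in the other RPF libraries, passed without it. In total RNA the 7 genes had pair medians of 4.05, 0.25 and 0.48 in log2, and in RPF the 6 genes had 1.80, 0.92 and 0.81. No gene of the 9 passed an adjusted p of 0.05 by the quasi-likelihood test of edgeR in either assay, nor did any other gene (0.0% of those tested in total RNA and 0.0% in RPF). With the replicate number as a block, 1 gene of all tested in total RNA passed, Cdsn, which is not among the 9. The plot of levels in the 12 libraries shows this for each gene.

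**Figure D1:**
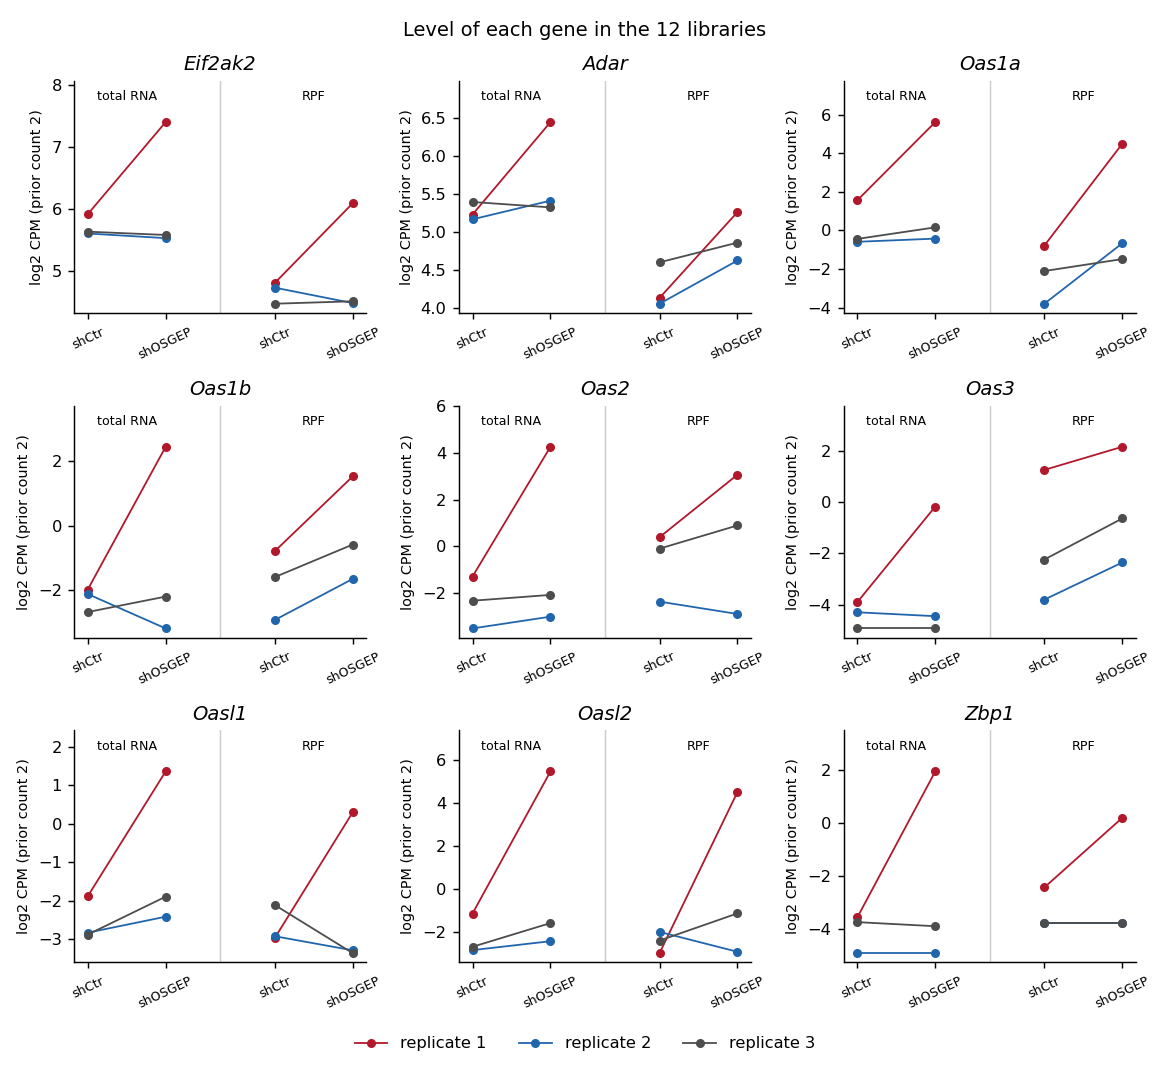
Level of each of the 9 genes in every library as log2 CPM with a prior count of 2 (vertical axes differ between panels), with shCtr joined to shOSGEP of the same replicate, total RNA on the left and RPF on the right of each panel. The replicate 1 line ends highest in every panel and assay, while the lines of replicates 2 and 3 change by at most 1.10 in total RNA, the value of Oasl2 in pair 3.

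PKR had the highest mean level per length of the 9 in both assays. Eif2ak2 (ENSMUSG00000024079, chromosome 17, 78852564 to 78882573, minus strand, GRCm38) had 3535, 2690 and 2393 total RNA reads in shCtr replicates 1 to 3, or 60.1, 48.5 and 49.5 CPM. In shOSGEP it had 10894, 3561 and 2821 reads, or 169, 46.0 and 47.7 CPM. The shOSGEP level was the higher one in replicate 1 alone, where it was 2.81-fold that of shCtr (95% interval from counting error alone, 2.70 to 2.92), whereas in pairs 2 and 3 it was 0.949-fold and 0.964-fold. Footprints also differed most in pair 1, with 27.8, 26.4 and 22.0 CPM in shCtr and 68.0, 22.2 and 22.6 CPM in shOSGEP. In pair 2 they were lower in shOSGEP and in pair 3 1.03-fold (0.939 to 1.12). The groups overlapped in both assays, and the fitted log2 change was 0.73 ± 0.51 (SE, n = 3 per group; adjusted p = 0.975 by edgeR) in total RNA and 0.56 ± 0.48 (adjusted p = 1.00 by edgeR) in RPF. Without the shOSGEP replicate 1 sample the fitted values were -0.18 in total RNA and -0.19 in RPF. An annotated ribosomal RNA copy on the other strand shared 47 exon bases with the gene and held at most 50 RPF reads in a library.

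ADAR1, like PKR, had its largest total RNA difference in pair 1, but it was higher in shOSGEP in pair 2 as well. Its footprints were higher in shOSGEP in all 3 pairs. Adar (ENSMUSG00000027951, chromosome 3, 89715022 to 89753446, plus strand) stood at 37.5, 35.9 and 42.0 CPM in total RNA of shCtr and at 87.0, 42.6 and 40.0 CPM in shOSGEP. In pair 1 this was 2.32-fold (2.21 to 2.44), in pair 2 1.19-fold (1.12 to 1.25) and in pair 3 0.952-fold (0.897 to 1.01). Its footprints amounted to 17.5, 16.6 and 24.2 CPM in shCtr and to 38.3, 24.6 and 29.0 CPM in shOSGEP, from 274 to 1210 reads per library. Adar was the only one of the 6 genes tested in RPF whose 3 shOSGEP libraries all lay above the 3 shCtr libraries; the nearest libraries stood at 24.2 and 24.6 CPM. This pattern was one that 2.43% of all genes tested shared. In RPF the log2 change was 1.13, 0.57 and 0.26 in pairs 1 to 3, and the fitted change of 0.65 ± 0.29 had an unadjusted p of 0.0566 and an adjusted p of 1.00 by edgeR. It was 0.45 without the shOSGEP replicate 1 sample. In total RNA the fitted change was 0.55 ± 0.31 (adjusted p = 0.975 by edgeR) and 0.09 without that sample. Interferon-inducible p150 and constitutive p110 isoforms of ADAR1 come from the same gene and were not separated by these counts. Adar shares 1365 exon bases with Chrnb2 on the opposite strand, which had 158 to 508 reads in total RNA and 28 to 513 in RPF, and the reads of the pair may be mixed in total RNA, as the kit named in the methods does not mark strand.

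Oas1a encodes a catalytically active OAS1 enzyme. Of the 6 OAS genes listed here it had the highest mean total RNA level in shCtr, though not the highest in RPF. Oas1a (ENSMUSG00000052776, chromosome 5, 120896256 to 120907521, minus strand) had 171, 35 and 34 total RNA reads in shCtr and 3150, 55 and 64 in shOSGEP. On the CPM scale these were 2.91, 0.630 and 0.703 in shCtr and 48.8, 0.711 and 1.08 in shOSGEP, a 16.8-fold difference in pair 1 (14.4 to 19.7). The shOSGEP level was also the higher one in pairs 2 and 3, at 1.13-fold (0.725 to 1.77) and 1.54-fold (1.00 to 2.41), with lower bounds at or below 1.00. Its footprints numbered 9, 0 and 8 in shCtr and 271, 18 and 11 in shOSGEP, higher in each pair, although the groups overlapped. The fitted RPF change of 5.11 ± 1.93 had the smallest p of the 6 genes tested in that assay, unadjusted 0.0332 and adjusted 1.00 by edgeR, and in total RNA it was 3.57 ± 1.67 (adjusted p = 0.975 by edgeR). Without the shOSGEP replicate 1 sample the total RNA value was -0.68 and the gene did not pass the RPF filter. Without both genotypes of replicate 1, which leaves out the high shCtr library as well, the values were 0.41 in total RNA and 2.06 in RPF. Of the stretches of 30 bases in its transcripts, 69.5% also occur in another gene, nearly all in Oas1g, so reads of these paralogs can be split or lost and the counts of both are uncertain.

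Oas1b (ENSMUSG00000029605, chromosome 5, 120812635 to 120824163, plus strand) restricts flaviviruses in wild mice and carries a premature stop in C57BL/6 and other laboratory strains, and GENCODE lists it as a polymorphic pseudogene. It had 13, 11 and 6 total RNA reads in shCtr and 349, 6 and 11 in shOSGEP, so that pair 1 differed 24.5-fold (14.1 to 46.4) while pair 2 lay in the other direction, at 0.391-fold (0.119 to 1.15). Its footprints were few but higher in shOSGEP in each pair, with 9, 1 and 13 reads in shCtr and 34, 8 and 23 in shOSGEP. The fitted changes were 3.36 ± 1.53 in total RNA and 2.08 ± 1.12 in RPF (adjusted p = 0.975 and 1.00 by edgeR). The value in total RNA was -0.50 without the shOSGEP replicate 1 sample, and the gene then did not pass the RPF filter.

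Oas2 and Oas3 make the larger synthetases with repeated OAS units. Oas2 (ENSMUSG00000032690, chromosome 5, 120730333 to 120749853, minus strand) had 22, 3 and 8 total RNA reads in shCtr and 1242, 7 and 12 in shOSGEP, and the pair 1 difference was 51.4-fold (33.8 to 82.4). The shOSGEP level was higher in each of the 3 pairs, but in pairs 2 and 3 by 4 reads only, with intervals of 0.382 to 10.0 and 0.461 to 3.46. Footprints numbered 22, 2 and 43 in shCtr and 101, 2 and 69 in shOSGEP, a ratio of 6.73 in pair 1 (4.21 to 11.2), 0.511 in pair 2 (0.0370 to 7.05) and 2.08 in pair 3 (1.40 to 3.11). The fitted change was 5.02 ± 2.05 in total RNA (unadjusted p = 0.0452, adjusted p = 0.975 by edgeR) and -0.47 without the shOSGEP replicate 1 sample. In RPF it was 2.16 ± 1.44 (adjusted p = 1.00 by edgeR) and 0.30 without that sample. Oas3 (ENSMUSG00000032661, chromosome 5, 120753098 to 120777661, minus strand) was the least abundant per length in total RNA, with 2, 1 and 0 reads in shCtr and 55, 1 and 0 in shOSGEP, and did not pass the filter there. Its RPF reads were 41, 0 and 7 in shCtr and 53, 4 and 22 in shOSGEP, higher in each pair, with a fitted change of 1.03 ± 1.71 (adjusted p = 1.00 by edgeR) and of -1.21 without the shOSGEP replicate 1 sample.

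The OASL proteins carry ubiquitin-like domains, and mouse Oasl1 lacks synthetase activity and restrains translation of the interferon regulator Irf7. Oasl2 (ENSMUSG00000029561, chromosome 5, 114896936 to 114912234, plus strand) showed the widest difference of the 9 genes. It had 25, 6 and 6 total RNA reads in shCtr and 2861, 12 and 18 in shOSGEP, which was 104-fold in pair 1 (70.5 to 161), 1.43-fold in pair 2 (0.498 to 4.66) and 2.45-fold in pair 3 (0.933 to 7.55). Its footprints rested on 1, 3 and 6 reads in shCtr and on 277, 2 and 15 in shOSGEP. The fitted total RNA change of 6.06 ± 2.24 had an unadjusted p of 0.0310 and an adjusted p of 0.975 by edgeR, and it was 0.03 without the shOSGEP replicate 1 sample. Oasl1 (ENSMUSG00000041827, chromosome 5, 114923240 to 114937915, plus strand) had 14, 6 and 5 total RNA reads in shCtr and 163, 12 and 14 in shOSGEP. Pair 1 differed 10.6-fold (6.14 to 19.8), and the fitted change was 2.67 ± 1.15 (adjusted p = 0.975 by edgeR) and 0.35 without the shOSGEP replicate 1 sample. Its footprints went the other way in pair 3, with 8 reads in shCtr and 1 in shOSGEP. Neither gene passed the filter in RPF.

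ZBP1 was above the limit of 3 total RNA reads in a single cell sample. Zbp1 (ENSMUSG00000027514, chromosome 2, 173206612 to 173218923, minus strand) had 3, 0 and 2 total RNA reads in shCtr and 247, 0 and 2 in shOSGEP, with 2, 0 and 0 footprints in shCtr and 13, 0 and 0 in shOSGEP. The pair 1 difference was 75.0-fold in total RNA (25.4 to 366) and 9.53-fold in RPF (2.16 to 86.9), both against 3 reads or fewer. The gene passed the filter in neither assay. In the 5 other total RNA libraries a count of 3 corresponded to 0.0388 to 0.0620 CPM, and Zbp1 was at or below this limit in all of them. Ripk3, the kinase that ZBP1 engages to start necroptosis, had at most 2 total RNA reads in any library, whereas its substrate Mlkl had 1855 to 3906.

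Taking the genes by comparison, 7 passed the filter in total RNA, 6 in RPF and 5 in both. The fitted log2 change was above 0 for 7 of 7 in total RNA, with a median of 3.36, where the median of all genes tested was 0.02, and for 6 of 6 in RPF, with a median of 1.55 beside 0.05. Low-count genes can pass this filter through the group in which they are high, so neither count is support for a change. At an unadjusted p of 0.05, Oas2 and Oasl2 passed in total RNA and Oas1a in RPF, beside 1.78% and 1.03% of all genes tested by edgeR. With no filter on low counts, Oas1a and Oasl2 passed the adjusted threshold in RPF, among 229 of 33633 genes tested. Each was high in the shOSGEP replicate 1 library only, with 271 footprints of Oas1a against 0 to 18 elsewhere and 277 of Oasl2 against 1 to 15. The shOSGEP library was the higher one in all 3 pairs for 4 of 7 genes in total RNA (Oas1a, Oas2, Oasl1 and Oasl2), a pattern held by 17.7% of all genes, and for 4 of 6 in RPF (Adar, Oas1a, Oas1b and Oas3), beside 15.7%. The limit of the filter holds for the low-count genes among these too, and for those at an unadjusted p of 0.05. For them the shares of all genes are no fair background, and these counts are no support for a change. All 3 shOSGEP libraries lay above all 3 shCtr libraries for 0 of 7 genes in total RNA, where 4.0% of all genes did.

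**Figure D2:**
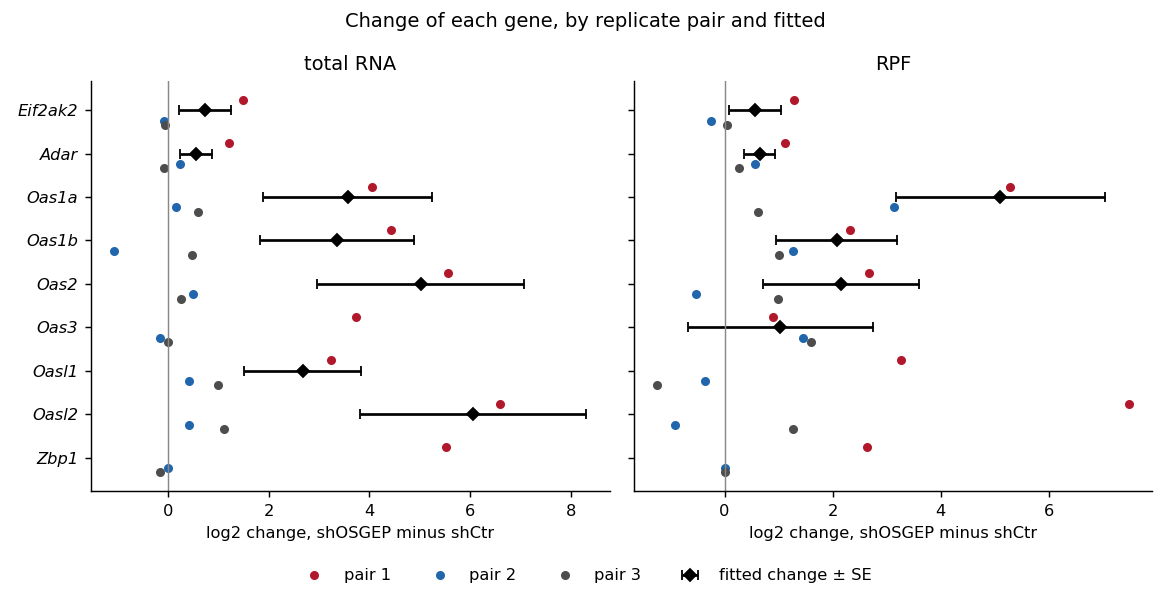
Log2 change (shOSGEP minus shCtr) of each gene in total RNA and RPF. Circles are the 3 replicate pairs (differences in log2 CPM with a prior count of 2) and diamonds the edgeR estimate ± SE for genes that passed the filter; pair 1 lies to the right of 0 for all 9 genes in both panels, from 1.21 for Adar to 6.60 for Oasl2 in total RNA.

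The shCtr libraries were not level either. Among the 3 shCtr total RNA libraries, replicate 1 was the highest for 6 of the 7 genes tested, all but Adar, where 33.4% of all genes tested had that library highest. Oas1a stood at 2.91 CPM there and at 0.630 and 0.703 CPM in the others, and the 6 OAS genes together at 4.20 CPM against 1.12 and 1.22 CPM. In shOSGEP the same sum was 121, 1.20 and 2.01 CPM. Both genotypes of replicate 1 thus held the highest OAS level of their group.

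The order of levels was compared per length, as CPM per kilobase of exon (CPM/kb) in total RNA and of coding sequence in RPF. In shCtr total RNA the mean level was 10.3 ± 1.27 CPM/kb (SD, n = 3) for Eif2ak2, 4.74 ± 0.392 for Adar and 0.750 ± 0.687 for Oas1a, each above the next in every library. Oas1b, Oasl1, Oas2 and Oasl2 followed between 0.0909 and 0.0344 CPM/kb with overlapping libraries, and Zbp1 and Oas3 came last with 0.00872 and 0.00245. In RPF of shCtr the lead was again Eif2ak2, at 16.4 ± 1.95 CPM/kb, before Adar at 5.51 ± 1.18. The next was Oas2 at 0.318 ± 0.244, and from there on no gene lay above its neighbour in all libraries. In shOSGEP, where the SD exceeded the mean for every gene but Eif2ak2 and Adar in total RNA, no neighbours in the order were separated in that assay.

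Footprints per transcript, the translational efficiency, were compared next, since t6A acts in decoding. The ratio of RPF CPM to total RNA CPM of Eif2ak2 was 0.462, 0.544 and 0.445 in shCtr and 0.403, 0.482 and 0.475 in shOSGEP, or 0.484 ± 0.0531 and 0.453 ± 0.0439 (SD, n = 3). Its values lay at the 57.7th to 84.4th percentile of 10292 protein-coding genes with at least 10 reads in every library. Adar gave 0.467, 0.463 and 0.577 in shCtr and 0.441, 0.579 and 0.725 in shOSGEP, or 0.502 ± 0.0645 and 0.581 ± 0.142, and its change was -0.09, 0.32 and 0.33 in log2 in pairs 1 to 3. The groups of both genes overlapped, and the interaction of assay and genotype in edgeR gave -0.18 ± 0.76 for Eif2ak2 and 0.09 ± 0.44 for Adar (adjusted p = 1.00 for both). Without the shOSGEP replicate 1 sample these were -0.01 and 0.36. In the shOSGEP replicate 1 sample, where every gene but Oas3 had 163 or more total RNA reads, the ratio was 0.458 for Oas1a (0.403 to 0.519), 0.516 for Oasl2 (0.454 to 0.584), 0.433 for Oas2 (0.350 to 0.531), 0.519 for Oas1b (0.354 to 0.739), 0.458 for Oasl1 (0.245 to 0.790) and 0.280 for Zbp1 (0.147 to 0.489). All but Zbp1 lay above the median ratio of 0.371 in that sample, and the intervals of Oas1b, Oas2, Oasl1 and Zbp1 included it.

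**Figure D3:**
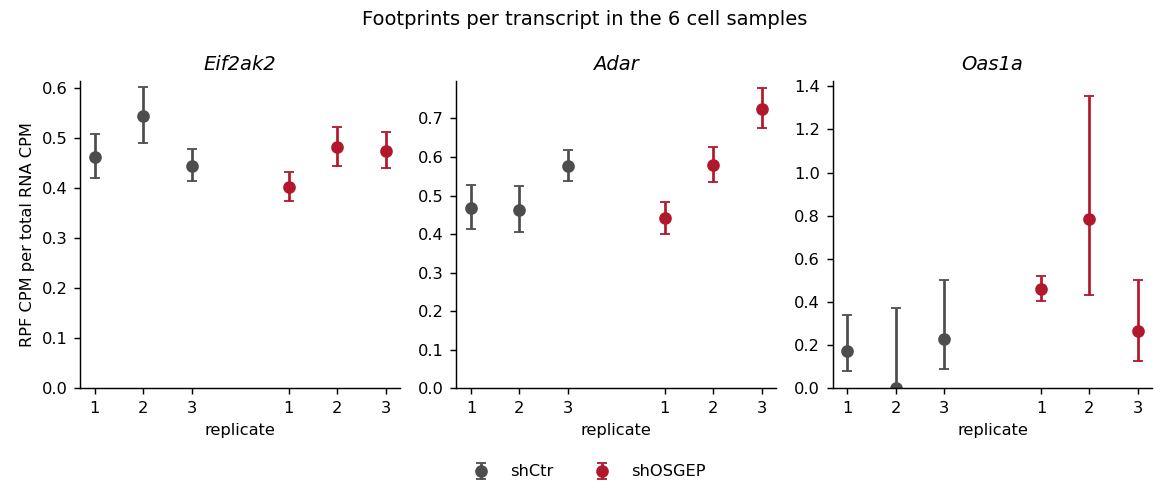
Ratio of RPF CPM to total RNA CPM of Eif2ak2, Adar and Oas1a in each of the 6 cell samples, with 95% exact intervals from counting error alone (vertical axes differ). The shCtr and shOSGEP points overlap for Eif2ak2 and Adar, and the 3 shOSGEP points of Oas1a lie above the 3 shCtr points with intervals that overlap between the groups.

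Oas1a was the only one of 5 genes tested whose efficiency was higher in shOSGEP in all 3 pairs (11.6% of 12560 genes tested) and whose groups did not overlap on the log2 scale (2.03% of genes). It did not pass the RPF filter without the shOSGEP replicate 1 sample. The filter thus favours such a gene when its shOSGEP footprints are high, and these shares cannot be read against Oas1a. Its ratio was 0.174, 0 and 0.228 in shCtr and 0.458, 0.784 and 0.264 in shOSGEP, on 0 to 18 footprints in 5 of the 6 samples. The interaction was 1.54 ± 2.61 with an unadjusted p of 0.566 and an adjusted p of 1.00 by edgeR. No gene of the 5 passed an unadjusted p of 0.05, which 0.135% of all genes did, and none of all genes passed the adjusted threshold (0.0%). With the cell sample as a block, Oas1a had 1.49 with an unadjusted p of 0.0443 and an adjusted p of 1.00 by edgeR, where 76 of 12560 genes passed the unadjusted threshold.

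Some OAS genes had more footprints than transcripts. Oas3 had 41 RPF reads beside 2 total RNA reads in shCtr replicate 1, 7 beside 0 in shCtr replicate 3 and 22 beside 0 in shOSGEP replicate 3. Oas2 had 43 beside 8 in shCtr replicate 3 and 69 beside 12 in shOSGEP replicate 3, and Oas1b 23 beside 11 in the latter sample. Per CPM the ratio of Oas2 in shOSGEP replicate 3 was 8.82 (4.74 to 17.9), against 0.433 in shOSGEP replicate 1, where its transcript was abundant. Of protein-coding genes with at most 20 total RNA reads in a cell sample, 1.80% to 5.64% had 10 or more footprints that outnumbered these reads. Of the stretches of 30 bases, 2.23% of those of Oas3 and none of those of Oas2 occur in another gene's transcripts. Footprint changes of Oas2, Oas3 and Oas1b outside replicate 1 therefore rest on cell samples with 0 to 12 total RNA reads of these genes, and the source of the footprints was not tested.

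The share of codons that start with A, the class read by tRNAs with t6A, was computed from the longest coding sequence of each gene. It was 34.6% for Eif2ak2, at the 96.7th percentile of 11271 genes with a coding sequence among those tested for efficiency, whose median was 26.8%. Adar had 27.4%, at the 55.2th percentile, Oasl2 30.6% and Zbp1 29.8%. The other 5 genes lay between 23.8% and 25.9%, below the median. Whether this share went with a change in efficiency was not tested.

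Among the other OAS genes, Oas1g and Oas1c were highest in the same library. Oas1g, the near copy of Oas1a, had 51, 11 and 20 total RNA reads in shCtr and 1041, 18 and 32 in shOSGEP. Its promoter window holds the same 30 bases as that of Oas1a. The window of Oas1c, which lies head to head with Oas1b, held 2 overlapping matches of the ISRE core within the 30 bases chr5:120812606-120812635. That stretch, flanking bases included, ends at the annotated start of Oas1b. Oas1c had 148, 47 and 74 reads in shCtr and 578, 42 and 87 in shOSGEP, while Oas1d, Oas1e, Oas1f and Oas1h had at most 3 reads in any total RNA library. Pde12, which degrades oligoadenylates, had a fitted change of -0.05. Neither Oas1g, Oas1c nor Pde12 passed the adjusted threshold by edgeR.

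Genes around PKR were measured well and as a list had medians near 0. The list of PKR regulators and the eIF2 branch had 11 of 11 genes tested, a median total RNA change of -0.08 and pair medians of 0.02, -0.04 and 0.00. The genes with the smallest p were Atf4, the transcription factor translated upon eIF2α phosphorylation (0.61 ± 0.15, unadjusted p = 0.00479 by edgeR), its targets Ppp1r15a (1.19 ± 0.54) and Ddit3 (0.63 ± 0.32), and the kinase Eif2ak3 (0.36 ± 0.22). By pair the log2 changes were 0.87, 0.39 and 0.55 for Atf4, 0.60, 0.54 and 0.76 for Ddit3, 1.75, 0.34 and 0.71 for Ppp1r15a and 0.71, 0.44 and -0.12 for Eif2ak3. Atf4, Ddit3 and Ppp1r15a were above 0 in each pair, and Atf4, Ppp1r15a and Eif2ak3 were highest in pair 1. Adjusted p-values were 0.975 by edgeR for each, and none of the list passed. The PKR activator Prkra and the PKR inhibitors Tarbp2 and Dnajc3 had changes of -0.08, -0.12 and -0.42, the last with -1.003, -0.38 and 0.06 by pair.

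Most other double-stranded RNA binding proteins did not share the higher level of Adar in pair 1. Of this list 11 of 12 genes were tested in total RNA, 2 of them above 0, with a median of -0.09 and pair medians of -0.42, -0.04 and -0.00. The ADAR relative Adarb1 had a fitted change of -0.03. Smallest p-values belonged to Zfr (0.41), Stau2 (-0.62), Ilf2 (-0.29) and Drosha (-0.24), and 0 passed the adjusted threshold. Zfr resembled Adar by pair, with 0.95, 0.21 and 0.15 in log2. The 4 tested genes downstream of ZBP1 had changes between -0.28 for Casp8 and 0.23 for Mlkl, with Ripk1 at 0.07 and Fadd at 0.01.

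Receptors of double-stranded RNA with their adaptors, and interferon genes, had list medians that were highest in pair 1. Of the receptor list 6 of 6 genes were tested in total RNA, with a median of 1.16 and pair medians of 1.99, 0.01 and 0.06. Dhx58, which modulates RIG-I-like receptors, had a change of 3.79 ± 1.57, and Ifih1 (MDA5), Ddx58 (RIG-I) and the endosomal Tlr3 had 1.67, 2.57 and 0.65. By pair Dhx58 had 4.88, -0.27 and 0.06, while the adaptors Mavs and Ticam1 were at -0.06 and 0.20 in pair 1. Of the interferon list 14 of 16 genes were tested, all 14 with a change above 0, with a median of 1.82 and pair medians of 2.62, 0.22 and 0.08. The median of all genes tested was 0.02. The changes ran from 0.01 for Ifnar1 to 5.30 for Usp18, which had 9 to 51 total RNA reads outside shOSGEP replicate 1. Low-count genes can pass the filter through that library, so the count of 14 is no support for a change. Ifit1 (3.06 ± 1.15), Isg15 (3.82 ± 1.52), Usp18 (5.30 ± 2.13) and Ifit3 (2.50 ± 1.08) had the smallest p-values, and 0 of either list passed the adjusted threshold by edgeR (adjusted p = 0.975 for each of these genes). In pair 1 these 4 ranged from 3.38 to 5.86, in pair 2 from 0.61 to 1.08 and in pair 3 from 0.06 to 0.54, while the receptor subunit Ifnar1 and the kinase Jak1 were at 0.02 and 0.10 in pair 1. Ifnb1, the interferon-β gene, had no read in any total RNA library.

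**Figure D4:**
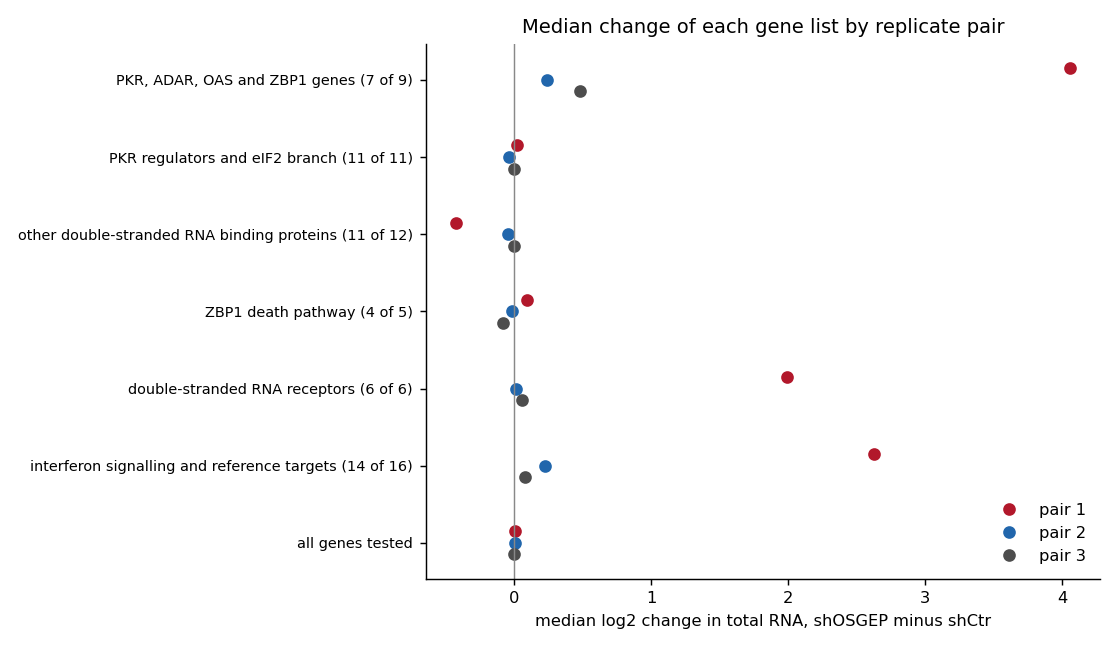
Median log2 change in total RNA (shOSGEP minus shCtr) of the genes tested in each list shown, by replicate pair; the number tested of the number listed stands in brackets, and the last line is the median of all genes tested. Pair 1 lies at 4.05 for the 7 tested of the 9 genes, at 2.62 for the interferon list and at -0.42 for the other double-stranded RNA binding proteins, and pairs 2 and 3 lie within 0.50 of 0 for every list shown.

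The genes most like the mean of the 7 genes across the 6 total RNA libraries, by Pearson's r of log2 CPM among 10214 genes with a mean of at least 5 CPM, were Efemp2, Shisa4, Naxd, Isg20, Irgm2, Gpcpd1, Trim30a and Plxna3, with r from 0.997 to 1.00. Isg20, Irgm2 and Trim30a are interferon-induced genes. Isg20 stood at 1.57, 0.775 and 0.785 CPM in shCtr and 27.3, 0.672 and 1.28 CPM in shOSGEP, and Trim30a at 6.84, 3.51 and 4.40 and at 111, 3.53 and 6.30 CPM. Efemp2, with the highest r, had a smaller range, from 24.3 CPM to 82.5 CPM in the shOSGEP replicate 1 library. An r above 0.99 was found for 84 genes, and the 8 genes named here all had their highest level in the shOSGEP replicate 1 library. These values describe the 6 libraries only.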

How the data were processed

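The authors deposited raw read counts per gene, in 1 table for total RNA and 1 for RPF, with 6 libraries and 55487 Ensembl gene IDs each, and no value was normalized before deposit. RPF were isolated after nuclease digestion by pulldown with a puromycin analogue and amplified by PCR, and molecular identifiers are not mentioned, so intervals and limits cover counting error only. The processing notes name FastQC, Trim Galore, cutadapt and STAR with builds GRCm38 and GRCm39. For total RNA sequencing the study's methods describe poly(A) selection with a kit that does not mark strand, independent infections, the nf-core/rnaseq workflow, STAR on GRCm38 and Salmon estimates, but on another sequencer than the labels name, and the deposited values are whole numbers. For RPF they describe perfect matches to the coding transcriptome, whereas 15.6% to 48.6% of the deposited RPF counts fell on protein-coding genes. How the deposited tables were counted was therefore not settled, and the treatment of reads with several matches is not given in the sources used here. Symbols and coordinates came from GENCODE release M21 (GRCm38), in which 55227 IDs were found.

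CPM were computed with TMM library sizes, and log2 CPM with a prior count of 2. Each assay was fitted over its 6 libraries with edgeR 4.0.16 (R 4.3.3; filterByExpr, TMM, quasi-likelihood F-test, Benjamini-Hochberg adjustment over all genes tested, threshold 0.05). Translational efficiency was the interaction of assay and genotype over all 12 libraries. Folds within a pair carry 95% exact binomial intervals, with effective library sizes taken as known. A limit of detection was set at 3 counts. The fits were tested on simulated counts with the same dispersion for every gene and no outlying library. That setting does not cover a sample that stands apart, such as shOSGEP replicate 1. Groups came from the sample titles. The labels do not tie libraries to separate infections, so the p-values measure the spread between these samples. Deviations from the group means of libraries with the same replicate number correlated over genes (total RNA r of 0.52, 0.54 and 0.29, RPF r of 0.59, 0.51 and 0.66), so the numbers were taken as pairs in describing changes. The fits themselves held genotype, and assay for efficiency, without the pairing, unless a block is named. All replicate libraries differed by more than sampling noise.

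The 9 genes, the other lists and the tests were chosen with earlier results of these data known. Named genes were all 9, every other OAS gene, the 4 genes of smallest unadjusted p in total RNA in each other list, all other genes being given only where a result turns on them (chosen after their values were seen), and the 8 genes of highest correlation with the mean profile. Alternatives were RLE size factors, DESeq2 1.42.0, voom of limma 3.58.1 with sample weights, other filters, protein-coding genes only, the replicate number or cell sample as a block, thresholds as used in the study (unadjusted p of 0.05 and log2 change of 0.5) and leaving out libraries. Results on a few genes of the other lists are not reported here.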

Additional observations from a re-analysis of the deposited data

How the results depend on the processing

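No alternative gave an adjusted p under 0.05 for any of the 9 genes in total RNA or translational efficiency, and the count of genes called was 0 unless given here. In total RNA, DESeq2 called 8 genes, voom 2, the fit with the replicate block 1 (Cdsn) and the study's thresholds 223, of which 2 were Oas2 and Oasl2. In RPF, DESeq2 called 1 gene (Gm29374), the study's thresholds 139, with Oas1a as the 1 among the 9, and the fit with no filter on low counts 229, with 2 of the 9, Oas1a (log2 change 4.95, adjusted p = 1.839e-09) and Oasl2 (adjusted p = 1.153e-11 by edgeR). Both genes had high footprint counts in shOSGEP replicate 1 only. The SE of Oas1a was 0.70 in the unfiltered fit and 1.93 in the filtered one. In translational efficiency the study's thresholds called 17. DESeq2 gave no p for 4 of 7 genes in total RNA, 1 of 6 in RPF and 2 of 5 in translational efficiency. With the replicate block an unadjusted p of 0.05 was passed by Oasl1 in total RNA (449 of 14516 genes) and by Adar, Oas1a and Oas1b in RPF (549 of 13529), with adjusted p-values of 0.721 and 0.817 by edgeR. With the block by cell sample it was passed by Oas1a in translational efficiency (76 of 12560).

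The median log2 change of the genes tested depended on the genes that passed and on replicate 1. In total RNA it was 0.74 with at least 10 counts in every library, 0.11 by voom and between -0.18, without shOSGEP replicate 1, and 3.92 when libraries were left out. In RPF it was 0.62, 0.40 and between 0.052, again without shOSGEP replicate 1, and 2.71. In translational efficiency it was 0.37 by voom, 0.18 with the replicate block and between -0.23 and 0.36. Leaving out both genotypes of replicate 1 gave 0.00052 in total RNA, 0.60 in RPF and 0.30 in translational efficiency.

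The direction of single genes turned as follows. By voom, which down-weights libraries, the change was -0.090 for Eif2ak2 and -0.082 for Oas1b in total RNA, -0.039 for Eif2ak2 and -1.10 for Oas2 in RPF and 0.78 for Oas1b in translational efficiency, where the replicate block gave 0.27 and the block by cell sample 0.029. When libraries were left out, total RNA changes ran from -0.18 to 1.03 for Eif2ak2, -0.68 to 4.66 for Oas1a, -0.50 to 3.99 for Oas1b and -0.47 to 5.89 for Oas2, RPF changes from -0.19 to 0.85 for Eif2ak2 and -1.21 to 4.22 for Oas3, and efficiency changes from -0.067 to 0.36 for Adar and -3.25 to 0.77 for Oas2. The cause of the differences between tools was not tested. The genes with fewer than 20 reads in most total RNA libraries (Oas1b, Oas2, Oas3, Oasl1, Oasl2 and Zbp1) have wide intervals in pairs 2 and 3 at this depth.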
